A study of Mus musculus with 18 samples.

Results

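Small RNA of extracellular vesicles (EV) released by untreated dendritic cells (control-EV) was compared with small RNA of the cells that released them (control-DC). The comparison uses 6 of the 18 libraries of the series, which are the 3 control-EV and the 3 control-DC libraries chosen by their labels, and each control-EV library was paired with the control-DC library of the same replicate number. The DC were grown from primary bone marrow of adult C57BL/6 mice in medium with GM-CSF, which came from a GM-CSF producing fibroblast line, and fetal calf serum. Control cultures received neither LPS nor VitD3. They serve here also to place 2 other pairs, namely LPS-EV with LPS-DC (LPS for 24 h) and VitD3-EV with VitD3-DC (10 nM VitD3 for 12 days). All cultures were moved to EV-depleted medium before EV were collected by differential centrifugation and a sucrose density gradient. Medium depleted in this way can still hold some EV of serum and of the fibroblast line. The DC are a bulk culture recovered by weak adherence and not a sorted population. Fewer cells of a type and less RNA per cell cannot be told apart in such samples.

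EV are membrane-enclosed particles that cells shed from endosomes or from the plasma membrane, and they carry RNA from the cytoplasm of the cell that made them. Most small non-coding RNAs have a fixed place in the cell. miRNAs silence mRNAs in the cytoplasm, snoRNAs guide the chemical modification of ribosomal RNA in the nucleolus, and snRNAs splice mRNA precursors in the nucleus. 7SL RNA directs nascent proteins to the endoplasmic reticulum, and Y RNAs, vault RNAs and tRNAs are also mostly cytoplasmic. Comparing EV with cells therefore asks which of these RNAs are over- or under-represented in EV relative to their source.

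The count table holds reads assigned to RNA genes and was taken as deposited. Counted reads were 16656534 to 24741522 per control-DC library and 1486881 to 3053774 per control-EV library. Less RNA was used for EV libraries than for cellular libraries, so that the compartment, the RNA input and the depth cannot be told apart. A low-count RNA is therefore more often without a read in EV. Libraries have no molecular identifiers, and all intervals cover counting error only. As a check of the labelled cell type, 10 miRNAs of myeloid cells took 46.2% to 59.2% of miRNA reads in control-DC, with miR-21a-5p and miR-146b-5p in front. Each mature name was counted once (the entry with most reads, as in all shares of miRNA reads of named miRNAs and lists). In the lymphoid list of 4, miR-150-5p of mature lymphocytes had 1 read in the 3 libraries. The other members had more, with 1019, 1341 and 2399 reads of miR-181a-5p in control-DC replicates 1 to 3. miR-181b-5p had 331, 476 and 750 reads, and miR-342-3p had 94, 28 and 86. The lists alone therefore do not settle the cell type. Libraries that stand apart were found in 2 places. In control-DC replicate 1, 5S rRNA took 0.517% of all reads, against 0.0065% and 0.0084% in the other control-DC libraries. In replicate 3, which was sequenced in run 2 while replicates 1 and 2 were sequenced in run 1, muscle miRNAs took 0.881% of miRNA reads in control-DC and 9.16% in control-EV, against at most 0.0258% in the other 4 libraries.

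The classes of RNA were divided differently over EV and cells. snoRNA reads made up 40.1%, 20.5% and 42.4% of all counted reads in control-DC replicates 1 to 3, but only 1.98%, 1.16% and 3.06% in control-EV. The mean share was 16.6-fold lower in EV, and the groups did not overlap (two-sided exact permutation test, n = 3 against 3, p = 0.1, which is the smallest p this design allows). Misc RNA, the class that holds 7SL, 7SK, Y and vault RNA, went the other way, with 0.132%, 0.131% and 0.117% in control-DC and 4.89%, 2.59% and 3.76% in control-EV, a 29.5-fold higher share (exact p = 0.1). rRNA reads that had escaped depletion were 25.3-fold higher in EV, at 9.59% to 24.8% against 0.42% to 0.95% (exact p = 0.1). Large and small subunit rRNA shares were 31.9-fold and 38.1-fold higher, whereas 5S rRNA overlapped between the groups. The EV to DC ratio of 5S was 0.077 in replicate 1, where the DC library stands apart, and 5.63 and 6.48 in replicates 2 and 3. The study regards unequal depletion in cells and EV as the probable reason for the apparent rRNA enrichment, which was not tested here. The ribozyme genes had a 2.43-fold higher share (exact p = 0.1). The groups overlapped in their share of tRNA (67.3% ± 8.50 in EV and 54.9% ± 12.3 in DC, mean ± SD, n = 3, exact p = 0.3), miRNA (7.11% ± 4.43 and 7.14% ± 2.61, exact p = 1), snRNA (1.92% ± 0.752 and 2.74% ± 1.05, exact p = 0.5) and scaRNA (exact p = 0.8). Since each share is a part of the whole, a class that takes up reads lowers the share of the others.

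**Figure D1:**
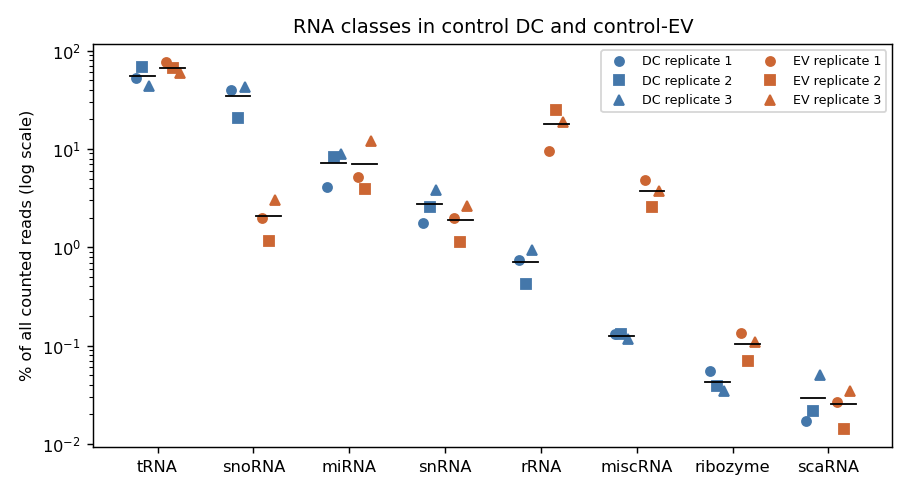
Share of all counted reads (percent, log scale) of each RNA class in the 3 control-DC and 3 control-EV libraries, with 1 symbol per replicate and a line at the mean of each group. The snoRNA symbols of EV (1.16% to 3.06%) lie below those of DC (20.5% to 42.4%), the rRNA and misc RNA symbols of EV lie above those of DC, and tRNA, miRNA and snRNA overlap.

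Because class shares moved this far, single RNAs were tested on 2 scales. In the first, each RNA was scaled within its own class, which asks whether it is over-represented among the miRNAs or the snoRNAs of EV. In the second, RNAs were scaled by all counted reads. An RNA was called when the edgeR quasi-likelihood test gave an FDR (Benjamini-Hochberg adjusted p) below 0.05 and the difference was over 2-fold. Within class, 355 miRNA entries, 306 snoRNAs, 293 snRNAs, 35 misc RNAs and 313 tRNA genes were tested. The median log2 fold change (log2FC, EV over DC) was −0.10 for miRNA within class and 0.36 over all reads, 0.13 and −1.80 for snoRNA, −1.74 and −2.27 for snRNA, −0.17 and 4.19 for misc RNA, and −0.24 and −0.23 for tRNA. Over all reads, at an FDR adjusted over all classes, 139 of 1326 RNAs were higher (10.5%) and 302 were lower in EV (22.8%).

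Among miRNAs, EV and cells were led by the same RNAs. miR-21a-5p, which is abundant in activated myeloid cells, took 43.5%, 44.2% and 39.3% of miRNA reads (each mature name counted once) in control-EV and 30.9%, 45.1% and 31.4% in control-DC. miR-146b-5p, which restrains inflammatory signaling, took 12.8% ± 2.68 in EV and 14.7% ± 2.20 in DC (mean ± SD, n = 3). The first 10 miRNAs held 81.1% of miRNA reads in EV and 84.6% in DC, and 8 of them were shared. miR-9-5p had 7.58%, 8.84% and 8.08% of miRNA reads in DC and 4.60%, 4.84% and 4.93% in EV. These groups did not overlap, but the miRNA missed the threshold (2.38-fold lower, FDR 0.14). Of the 355 entries, 31 were higher in EV (8.73%) and 13 were lower (3.66%), which are 28 and 12 distinct names of 321. The lower miRNAs had a median of 3097 reads over the 3 DC libraries and 71 over the 3 EV libraries, and 5 of the 13 had at least 100 EV reads. The higher miRNAs had a median of 18 reads in DC and 38 in EV, and 10 of the 31 had at least 100 EV reads. Without the replicate block, which takes out differences between experiment days, 7 miRNA entries were higher and 9 lower, and without replicate 3, 9 were higher.

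**Figure D2:**
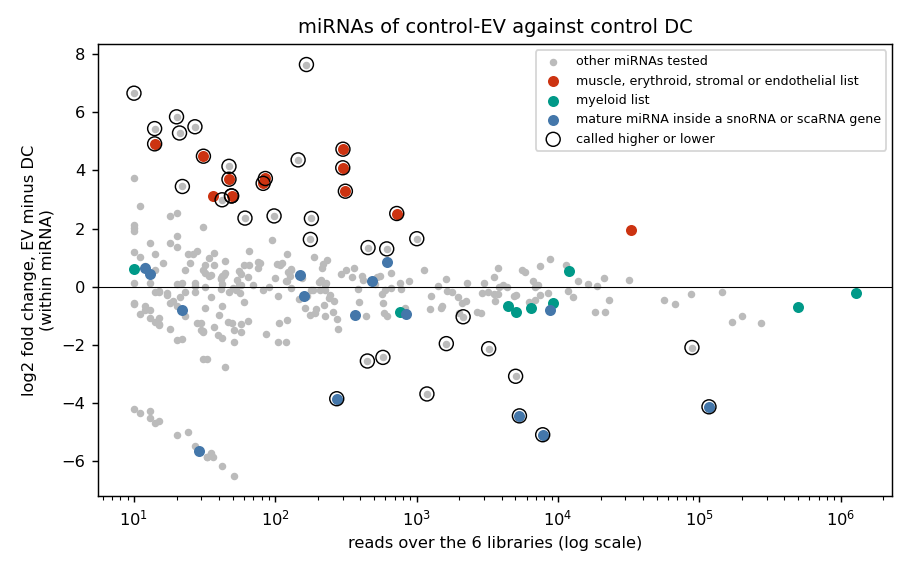
Each point is 1 of the 321 tested mature miRNA names (the entry with most reads), with its reads over the 6 libraries (log scale) on the x axis and its log2FC within miRNA, EV minus DC, on the y axis. Circled points were called. The circled points above 0 sit at low read numbers and include the muscle, erythroid, stromal and endothelial lists, and the blue circled points below 0 are 4 of the 15 mature miRNAs whose sequence lies inside a snoRNA or scaRNA gene.

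Of the lower miRNAs, 8 are shown with their mature sequences (RefSeq, GRCm38.p6), because 4 of them lie inside annotated snoRNA genes on the same strand. Capitals mark the seed, bases 2 to 8, which pairs with target mRNAs.
miR-677-5p: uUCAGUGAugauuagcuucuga
miR-677-3p: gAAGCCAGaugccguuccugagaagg
miR-5121: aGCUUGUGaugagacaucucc
miR-3535: uGGAUAUGaugacugauuaccugaga
miR-16-1-3p: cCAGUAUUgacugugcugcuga
miR-221-5p: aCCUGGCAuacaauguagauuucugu
miR-27a-5p: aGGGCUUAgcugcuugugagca
miR-7a-5p: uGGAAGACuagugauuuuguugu
Both miR-677 arms lie on the plus strand, at chr10:128085291-128085312 and chr10:128085335-128085360, inside the snoRNA gene Mir677 in an intron of Atp5b. miR-5121 lies at chr7:45126925-45126945, minus strand, inside Snord33. miR-3535 lies at chr1:86352062-86352087, minus strand, inside the snoRNA gene Gm24148 in an intron of Ncl.

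miR-677-5p had 3007, 2401 and 2344 reads in control-DC replicates 1 to 3 and 16, 8 and 15 reads in control-EV. It was 34.3-fold lower within miRNA (SE 0.38 on the log2 scale, FDR 6.4e-13) and 24.7-fold lower over all reads. The other arm, miR-677-3p, had 91, 86 and 92 reads in DC and 0, 2 and 1 in EV. With 3 reads in EV, its pooled share of the reads of all miRNA entries was 12.4-fold lower with a 95% counting interval of 4.2- to 60.5-fold (exact binomial), and edgeR gave an FDR of 0.00071. Both arms of this hairpin were called lower.

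miR-5121 had 3085, 1021 and 1187 reads in DC and 23, 8 and 10 in EV (21.8-fold lower, SE 0.38, FDR 2.0e-11). miR-3535, the sixth most abundant miRNA entry of DC, had 58443, 18112 and 39213 reads in DC and 517, 110 and 601 in EV (17.6-fold lower, SE 0.50, FDR 4.7e-08). For these miRNAs the groups did not overlap, and the snoRNA genes around them had nearly the same counts. Gm24148 had 58545, 18186 and 39415 reads in DC and 524, 112 and 609 in EV, so that the reads of both rows cannot be told apart. Of 277 tested miRNA names with a RefSeq sequence, 15 lie inside a snoRNA or scaRNA gene (5.42%). Of these 15, 4 were lower and 0 were higher by edgeR (unadjusted p under 0.05: 7 lower and 1 higher, DESeq2: 4 lower and 0 higher). Their median log2FC was −0.82, against −0.11 over all 277. The remainder held both signs, for example miR-3068-5p inside Mir3068 (log2FC −0.94, FDR 0.099), miR-1839-5p inside the scaRNA gene Mir1839 (−0.82, FDR 0.11) and miR-1843b-5p inside Scarna3a (0.86, FDR 0.13). The letters UGAUGA, which match the C box of a C/D snoRNA, occur in 6 of the 277 mature sequences. Among these 6 were miR-677-5p, miR-5121 and miR-3535, and the median log2FC of the 6 was −2.82.

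The other lower miRNAs with a RefSeq sequence lie outside annotated snoRNA and scaRNA genes, and miR-30b-3p and miR-5099, which matched none, were not checked. miR-16-1-3p had 949, 1673 and 2297 reads in DC and 27, 23 and 44 in EV (8.49-fold lower, SE 0.33, FDR 4.7e-09). miR-16-5p, which restrains cell division, had 486, 567 and 664 reads in DC and 80, 40 and 118 in EV (log2FC −0.37, FDR 0.52). miR-221-5p fell 4.4-fold (853, 874 and 1370 against 52, 14 and 68 reads, FDR 4.8e-06), while miR-221-3p had a log2FC of −0.22 (FDR 0.75). miR-27a-5p fell 3.9-fold (206, 536 and 808 against 16, 8 and 47 reads, FDR 0.00012), and miR-27a-3p, which targets regulators of lipid metabolism, had a log2FC of 0.18 (FDR 0.82). In these 3 cases 1 arm was called and the other was not, and the difference between arms was itself not tested. miR-7a-5p, known as a brake on growth factor signaling, had 28224, 20821 and 35501 reads in DC and 1424, 366 and 2290 in EV (4.28-fold lower, SE 0.44, FDR 0.00071). miR-5099 (12.9-fold lower, FDR 3.0e-07), miR-30b-3p (5.90-fold), miR-877-3p (5.41-fold) and miR-182-5p (2.05-fold, FDR 0.021) completed the group. The call of miR-182-5p was lost under 8 of the settings tried, among them the fit without replicate 2 (log2FC −0.85).

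Over all hairpins, the groups overlapped in the share of minor arms. When the minor arm of each hairpin was defined in the LPS-DC and VitD3-DC libraries, minor arms took 1.11%, 1.06% and 1.16% of paired-arm reads in control-DC and 0.927%, 1.35% and 0.941% in control-EV (exact p = 1). Of 75 minor arms tested, 1 was higher and 4 were lower. In 65 hairpins with at least 100 EV reads, the minor share was higher in EV in 21 and lower in 36, as a count without a test.

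Of the miRNAs that were higher in EV, those that share a seed or are described next are given with the seed in capitals.
miR-99a-5p: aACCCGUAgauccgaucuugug
miR-99b-5p: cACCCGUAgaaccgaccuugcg
miR-100-5p: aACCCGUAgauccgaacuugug
miR-125a-5p: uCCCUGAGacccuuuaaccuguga
miR-125b-5p: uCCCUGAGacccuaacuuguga
miR-351-5p: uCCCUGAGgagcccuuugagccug
miR-10b-5p: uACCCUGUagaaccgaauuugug
miR-682: cUGCAGUCacagugaagucug
miR-126a-3p: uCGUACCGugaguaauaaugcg
miR-451a: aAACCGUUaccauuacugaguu
miR-206-3p: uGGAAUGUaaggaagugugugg
The seed ACCCGUA is shared by miR-99a-5p, miR-99b-5p and miR-100-5p, and all 3 tested members were called higher in EV (log2FC 1.65 to 2.43, against 8.73% of all miRNA entries called higher), although the call of miR-99b-5p was lost without replicate 1. The seed CCCUGAG is shared by miR-125a-5p, miR-125b-5p and miR-351-5p, and these 3 were called higher as well (log2FC 1.63 to 4.14). The call of miR-125b-5p was lost without replicate 3. The highest value, 4.14, was that of miR-125b-5p, which passed the read minimum only through EV, where it is high, and had to differ. The call of miR-125b-5p therefore adds no support for this seed group. The seeds were grouped with the calls known, and no test is given. Genes of the miR-99 and miR-125 families lie in shared clusters and are known from blood stem cells and from stromal cells. miR-10a-5p and miR-10b-5p share the seed ACCCUGU, yet their log2FC were −0.17 (FDR 0.86) and 4.36 (FDR 2.0e-06).

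miR-99b-5p, the most abundant of these, had 123, 166 and 339 reads in DC and 151, 32 and 191 in EV. Scaled to the miRNA reads of each library, miR-99b-5p was 3.14-fold higher in EV (SE 0.34, FDR 0.00052). Without replicate 1 the log2FC was 1.06. miR-99a-5p had 9, 21 and 59 reads in DC and 11, 8 and 72 in EV (5.09-fold, SE 0.51, FDR 0.00086). For both, the share of miRNA reads was higher in each EV library than in any DC library. miR-125b-5p had 1, 2 and 6 reads in DC and 6, 1 and 31 in EV (17.7-fold, SE 0.94, FDR 0.0014), and without replicate 3 its log2FC was 3.60 (FDR 0.57). miR-10b-5p, which lies in a Hox cluster and is a miRNA of mesenchymal cells, had 2, 4 and 17 reads in DC and 7, 4 and 111 in EV (20.6-fold, SE 0.63), and it was also no longer called without replicate 3 (log2FC 3.61, FDR 0.17).

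miR-682 had the lowest p on the higher side. It had 0, 3 and 0 reads in DC and 69, 7 and 87 reads in EV, a 393-fold higher pooled share of the reads of all miRNA entries (95% counting interval 132- to 1925-fold, edgeR FDR 4.1e-10). Its locus at chr13:75645119-75645139 (plus strand) lies in an exon of the processed pseudogene Gm4149, and reads of both cannot be told apart. miR-8094, which lies in an exon of the mRNA gene Ddx39b on the same strand, had 1, 1 and 0 reads in DC and 11, 1 and 13 in EV (pooled share 90.4-fold higher, counting interval 22.5- to 787-fold, FDR 0.00073, called no longer without replicate 3). miR-5108 (2 reads in DC and 19 in EV) and miR-703 (1 and 19) stood on similarly small numbers. These 4 miRNAs passed the minimum of 10 reads only through EV, where they are high, and had to differ. With at least 10 reads required in each compartment, 23 miRNA entries were higher and 15 lower.

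Several of the higher miRNAs are known from cell types other than DC. miR-126a-3p, which is encoded in the endothelial gene Egfl7 and also made by plasmacytoid DC and megakaryocytes, had 7, 32 and 30 reads in DC and 12, 54 and 165 in EV (17.1-fold, SE 0.43, FDR 2.5e-09), with the share in each EV library above that in each DC library. miR-143-3p, a miRNA of smooth muscle and fibroblasts, had 0, 1 and 66 reads in DC and 2, 19 and 213 in EV (26.6-fold, SE 0.56, FDR 2.6e-08). miR-451a and miR-486, which are miRNAs of red blood cells, were higher too. miR-451a had 0, 0 and 7 reads in DC and 0, 7 and 17 in EV (22.5-fold, SE 1.14, FDR 0.0047), and miR-486b-5p had 0, 3 and 26 in DC and 7, 5 and 44 in EV (13.2-fold, SE 0.74, FDR 0.00038). miR-206-3p of skeletal muscle had 0, 1 and 98 reads in DC and 1, 0 and 213 in EV (9.76-fold, SE 0.63, FDR 0.00025). The reads of miR-143-3p and miR-206-3p in replicate 3 were far above those of the other replicates in cells and EV alike. Without replicate 3, miR-143-3p was still called (FDR 5.0e-05) on 1 read in DC, and miR-206-3p fell below the read minimum and was not tested. Calls for miR-143-3p, miR-206-3p, miR-486b-5p and miR-451a were lost without the replicate block, the call for miR-486b-5p also without replicate 3 and that for miR-451a without replicate 2.

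Summed over the marker lists, these miRNAs had the following shares. Of the muscle list, 5 of 7 were tested and 3 were higher (miR-133a-3p, miR-206-3p and miR-499-5p). Its summed share of miRNA reads was 0.000124%, 0.0258% and 0.881% in control-DC and 0.00749%, 0.0162% and 9.16% in control-EV, so the groups overlapped. miR-1a-3p, the main muscle miRNA, had 1, 258 and 10043 reads in DC and 9, 5 and 22555 in EV and was not called (log2FC 1.94, FDR 0.13, and 0.38 without replicate 3). miR-133a-3p had 0, 23 and 209 reads in DC and 0, 2 and 489 in EV, and without replicate 3 its log2FC turned from 2.52 to −0.17. Of the erythroid list, 3 of 6 names were tested and called higher, of the stromal list 2 of 7 and of the endothelial list 2 of 2, beside 8.73% of all miRNA entries. Among these, miR-451a and miR-126a-5p passed the read minimum only through EV, so that these counts give no support for the lists, which were also chosen with earlier results known. miR-486a-5p had 0, 3 and 27 reads in DC and 7, 4 and 41 in EV, nearly the same as miR-486b-5p. The erythroid count and sum may therefore hold 1 signal more than once. The summed shares of the erythroid, stromal and endothelial lists were 0% to 0.00509%, 0.000249% to 0.00713% and 0.000871% to 0.00293% in DC, and 0.0112% to 0.0428%, 0.00225% to 0.0987% and 0.00899% to 0.123% in EV. In the liver list 1 of 3 was higher, which was miR-122-5p (6, 7 and 4 reads in DC and 2, 9 and 14 in EV). Members at or near 0 were miR-208a-3p of heart, miR-124-3p and miR-137-3p of neurons and miR-214-3p of stromal cells, with at most 1 read over the 6 libraries. Other members of the same lists did have reads. In the neuronal list, miR-128-3p had 85, 118 and 131 reads in DC and 11, 22 and 46 in EV, and miR-138-5p had 40, 47 and 88 in DC and 5, 5 and 5 in EV. In the stromal list, miR-199a-3p had 1, 3 and 14 reads in DC and 0, 5 and 26 in EV. The members near 0 therefore do not show that a cell type was absent. The epithelial (6 tested), neuronal (4) and lymphoid (3) lists had 0 calls by edgeR, 0 at an unadjusted p under 0.05 and 0 by DESeq2. Whether RNA of other cells, of serum or of the fibroblast line has a part in the higher miRNAs was not tested.

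**Figure D3:**
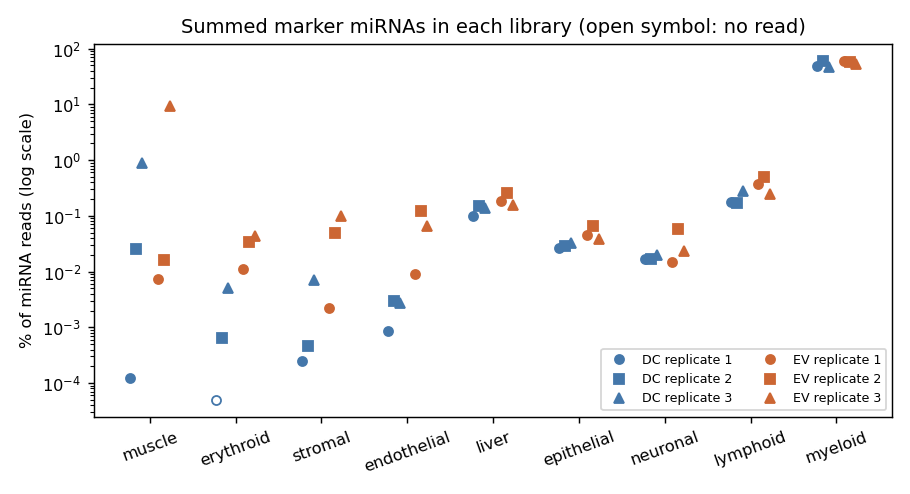
Summed share of miRNA reads (percent, log scale, each mature name counted once) of 9 marker lists in each library, with 1 symbol per replicate and an open symbol where a library has no read. The muscle list stands high in replicate 3 of both compartments (0.881% in DC and 9.16% in EV), the endothelial and erythroid lists lie above DC in each EV library, and the myeloid list takes 46.2% to 60.2% in all 6 libraries.

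The myeloid list gave no call. Of its 9 tested entries, 0 were called by edgeR (unadjusted p under 0.05: 4 lower, DESeq2: 0), with a median log2FC of −0.68 against −0.10 for all miRNA entries. miR-155-5p, which promotes DC activation, had 881, 513 and 2654 reads in DC and 111, 52 and 239 in EV (log2FC −0.68, FDR 0.16). miR-146a-5p, induced by NF-κB and acting against it, had 1381, 1048 and 3447 in DC and 180, 90 and 303 in EV (log2FC −0.74, FDR 0.13). miR-223-3p of granulocytes and monocytes had a log2FC of −0.88 (FDR 0.15). Its shares overlapped between the groups, as did those of the other members named here.

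The large miRNA families gave few calls. In the let-7 family, which holds back stem cell programs, 0 of 10 were called by edgeR (unadjusted p under 0.05: 1 lower, DESeq2: 1 lower), and log2FC ranged from −1.22 to 1.13. For the miR-17-92 cluster and its paralogs, which promote proliferation, 0 of 9 were called (unadjusted: 3 lower, DESeq2: 0), with log2FC between −1.24 and −0.01. The miR-30 family (5 tested), the miR-181 family (4) and the miR-15/16 family (4) had 0 calls by edgeR, 0 unadjusted and 0 by DESeq2. For the miR-29 family, 0 of 3 were called (unadjusted: 1 higher, DESeq2: 0), and miR-29a-3p, a regulator of collagen genes, had 2668, 2982 and 3217 reads in DC and 738, 692 and 1059 in EV (log2FC 0.74, FDR 0.15).

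Short motifs that have been linked to miRNA export were counted in the mature sequences. GGAG occurs in 2 of the 21 higher miRNAs with a sequence, 0 of the 10 lower ones and 30 of all 277 (10.8%). CCCU occurs in 4 of 21, 1 of 10 and 25 of 277 (9.03%). Only the mature strand was searched, and a match is a description and not a binding site.

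snoRNAs were divided by length and by box type. Of 306 tested within class, 74 were higher (24.2%) and 76 lower (24.8%) in EV, whereas over all reads 14 were higher (4.58%) and 152 lower (49.7%). The split depends on the scaling: scaled by the class total, 173 were higher and 9 lower. Differences within the class are therefore relative to the median snoRNA, and values over all reads are given beside them. Of the 74 higher snoRNAs, 14 were also called higher over all reads and 20 had the opposite sign there. All 76 lower snoRNAs were also called lower over all reads. Without replicate 3, 27 snoRNAs were higher.

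Several of the most abundant snoRNAs of DC were among the most reduced. They are shown, with the higher Snord82 for contrast, with their sequences (GENCODE, GRCm38), in which capitals mark the C box letters TGATGA near the 5′ end and the D box letters CTGA near the 3′ end, the protein-binding boxes of a C/D snoRNA.
Snord2: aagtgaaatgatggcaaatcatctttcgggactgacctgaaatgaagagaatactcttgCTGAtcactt
Gm23246: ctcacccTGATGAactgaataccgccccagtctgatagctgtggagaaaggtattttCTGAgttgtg
Snord95: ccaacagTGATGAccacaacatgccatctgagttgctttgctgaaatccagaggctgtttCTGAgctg
Snord82: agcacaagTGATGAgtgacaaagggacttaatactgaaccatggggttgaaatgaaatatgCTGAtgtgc
Snord2 lies at chr16:23108953-23109021 (plus strand), Gm23246 at chr19:8725594-8725660 (plus), Snord95 at chr11:48803139-48803206 (plus) and Snord82 at chr1:86356261-86356330 (minus). Snord2 has no exact TGATGA within the first 20 bases.

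Snord2 had 99961, 43875 and 110658 RPM (reads scaled to a fixed total of all counted reads) in control-DC and 2493, 1635 and 5065 in control-EV. It was 28.6-fold lower over all reads (SE 0.42, FDR 7.5e-28) and 7.34-fold lower within snoRNA. Gm23246 had 75986, 62306 and 98458 RPM in DC and 1538, 1516 and 3584 in EV (38.2-fold lower over all reads, 9.79-fold within snoRNA). Together these 2 genes took 43.9%, 51.9% and 49.3% of snoRNA reads in DC and 20.3%, 27.1% and 28.2% in EV (exact p = 0.1). Snord95 had 12059, 8777 and 23373 RPM in DC and 278, 252 and 719 in EV (36.6-fold lower over all reads, 9.38-fold within snoRNA, FDR 1.3e-06). Gm22680 (34.9-fold lower over all reads) and Gm24357 (34.8-fold) had the same pattern, and for all of these the groups were far apart over all reads. Within snoRNA the fold also depends on the scaling, and plain shares of snoRNA reads differed less. In plain shares the groups did not overlap for 18 of the 76 lower and 70 of the 74 higher snoRNAs.

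C/D snoRNAs were found on both sides. Snord82 had 36.5, 19.2 and 59.8 RPM in DC and 113, 28.2 and 161 in EV, which is 2.34-fold higher over all reads (SE 0.49, FDR 0.037) and 9.12-fold higher within snoRNA (FDR 0.00012), although the RPM of both groups overlapped. Snord68 had 2202, 337 and 1081 RPM in DC and 758, 261 and 1063 in EV, and its call as 2.50-fold higher within snoRNA was lost without replicate 2 and without replicate 3. Its value over all reads was 1.56-fold lower (FDR 0.28).

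Of the 14 snoRNAs that were higher in EV on both scales, 4 more are described. Scarna10, a guide of snRNA modification in Cajal bodies with 325 nt in the annotation, had 9.38, 4.44 and 6.15 RPM in DC and 44.9, 17.5 and 51.0 in EV (5.42-fold higher over all reads, SE 0.53, FDR 2.7e-05, 21.2-fold within snoRNA). Snord17 of 238 nt had 50.4, 56.7 and 56.4 RPM in DC and 308, 86.8 and 248 in EV (3.50-fold over all reads, FDR 0.0011). Snora73b of 205 nt, an H/ACA RNA that acts in rRNA processing, had 14.9, 6.90 and 6.21 RPM in DC and 61.2, 16.1 and 25.9 in EV (3.47-fold, FDR 0.0024). Gm25791 had 15.6, 11.4 and 11.0 RPM in DC and 42.9, 33.0 and 54.3 in EV (3.39-fold, FDR 0.0023). For these 4 RNAs each EV library was above each DC library. Gm25791 is shown as an H/ACA RNA, with the ACA box, 3 bases before its 3′ end, in capitals.
Gm25791: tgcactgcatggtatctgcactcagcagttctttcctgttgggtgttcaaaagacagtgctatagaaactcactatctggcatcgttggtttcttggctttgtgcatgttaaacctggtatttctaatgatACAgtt
Gm25791 lies at chr9:15314845-15314981, plus strand, and is 137 nt long.

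Over the whole class, H/ACA snoRNAs, which guide pseudouridylation, stood above C/D snoRNAs, which guide 2′-O-methylation. By gene name, 17 of 37 Snora genes were higher and 4 lower (median log2FC 1.03 within snoRNA, −0.91 over all reads). Of 76 Snord genes, 21 were higher and 36 lower (median −0.82 and −2.78). The median of all 306 was 0.13 and −1.80. The difference between these medians was 3.53, 1.85 and 1.69 on the log2 scale in replicates 1 to 3. Snora genes took 0.194%, 0.626% and 0.363% of snoRNA reads in control-DC and 2.58%, 2.14% and 1.74% in control-EV, a 5.45-fold higher share (exact p = 0.1). Classed by letters instead of names, the same order was seen. Of 90 genes with TGATGA within 20 bases of the 5′ end and CTGA within 15 bases of the 3′ end, 20 were higher and 36 lower (median −0.52), and of 111 genes with ACA 3 bases before the 3′ end, 34 were higher and 5 lower (median 1.05). Another 4 genes had both and 101 had neither. Only the annotated strand was searched.

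Length went along with box type. Higher snoRNAs had a median annotated length of 135 nt (68 to 325), lower ones 74.5 nt (60 to 137) and all tested 122 nt. Over 233 snoRNAs with at least 10 reads in each compartment, Spearman's rho of length with the log2FC was 0.66 and Pearson's r 0.62. This is a description over genes of the same 6 libraries and carries no test. For 98 snRNAs the rho was 0.45, and for 29 misc RNAs it was −0.52. These were required to have at least 10 reads in EV only, and 97 snRNAs and 24 misc RNAs had at least 10 reads in each compartment. The annotated length is not the length of the sequenced fragments, which the count table does not hold.

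**Figure D4:**
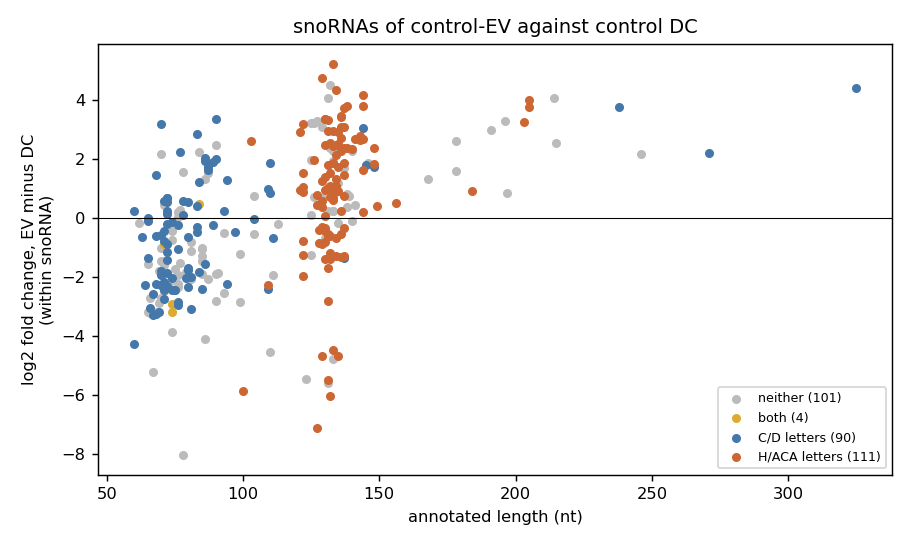
Annotated length (nt) against the log2FC within snoRNA (EV minus DC) of the 306 tested snoRNAs, colored by box letters. Genes with C/D letters have a median length of 76 nt and a median log2FC of −0.52, genes with H/ACA letters have medians of 133 nt and 1.05, and Scarna10 with 325 nt lies at 4.41.

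snRNA genes differed by family. Of 293 tested snRNA genes, 40 were higher (13.7%) and 65 lower (22.2%) in EV within class. Many are close copies of one another, whose reads may not be told apart, so that copies were also summed by family at 95% identity, and the 8 sums were tested with class-total scaling: 1 was higher (12.5%) and 4 were lower (50%). U1, which recognizes the 5′ splice site, took 3.27%, 3.76% and 2.62% of snRNA reads in control-DC and 27.5%, 29.2% and 13.9% in control-EV (7.02-fold higher, SE 0.39, FDR 1.5e-05). All EV libraries were above all DC libraries. Of 28 tested U1 copies, 23 were higher and 0 lower by edgeR (0 lower at an unadjusted p under 0.05 and 0 by DESeq2).

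Among single U1 copies, Gm23240 had 4.85, 10.1 and 5.11 RPM in DC and 72.4, 115 and 49.5 in EV (11.8-fold higher over all reads, 17.6-fold within snRNA, FDR 1.8e-12), and Gm22042 had 218, 267 and 182 RPM in DC and 2375, 688 and 979 in EV (5.34-fold and 8.0-fold). Gm24405, with 94.0% identity to U1 and therefore left out of the family, had 2.87, 7.74 and 3.02 RPM in DC and 62.2, 94.8 and 45.5 in EV (15.8-fold and 23.6-fold). These copies share most of their letters with the main U1 gene, and the rise of a copy cannot be told apart from that of the family.

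U6, which forms the catalytic center of the spliceosome, took 8.12%, 6.37% and 2.94% of snRNA reads in DC and 1.5%, 1.71% and 0.919% in EV (4.01-fold lower, SE 0.42, FDR 0.00071). U7, which acts in histone mRNA processing, fell 3.48-fold (2.69%, 2.12% and 0.726% against 0.598%, 0.588% and 0.281%), and U5 fell 3.14-fold (27.6%, 14.6% and 15.2% against 5.86%, 5.78% and 5.80%). The groups did not overlap for these 3 families. The copies not assigned to a family summed to 2.58-fold less in EV. U2, which binds the branch point and was the largest family, took 53.7% ± 16.0 in DC and 61.6% ± 11.1 in EV (1.17-fold, FDR 0.58), and U12 and U11 of the minor spliceosome had a log2FC of 0.18 and −0.03. Shares of families add up to the whole class. With TMM in place of the class total, 0 of 8 families were lower, and without replicate 2, 0 were lower too, while U1 stayed higher. Over all reads, the mean share of U1 was 4.84-fold higher, and that of U6 5.77-fold and U5 4.35-fold lower. Of 159 tested U6 copies, 54 were lower and 1 was higher, and 68 had no read in EV. Copies with few or no EV reads passed the read minimum only through DC, where they are high, and had to differ. The lower snRNAs of all families had a median of 5 reads in EV and 544 in DC. With the read minimum required in each compartment, 23 snRNAs were lower in place of 65. The count of lower U6 copies therefore gives no support of its own for a lower U6. Gm25516, a U6 copy of 97.2% identity, had 95.4, 99.4 and 83.9 RPM in DC and 3.27, 2.69 and 4.80 in EV (25.6-fold lower over all reads). Gm22823 had 124, 87 and 76 reads in DC and none in EV, which is at least 9.26-fold lower within snRNA when 3 reads over the 3 EV libraries are taken as the limit.

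Misc RNA genes were higher in EV nearly without exception over all reads. Of the 35 tested, 30 were higher (85.7%) and 0 lower by edgeR (0 lower at an unadjusted p under 0.05). Only 24 of the 35 had at least 10 reads in each compartment. Within the class, 2 were higher (5.71%) and 8 lower (22.9%). Copies were grouped by similarity to 7SL, 7SK, Y and vault RNA. All 11 genes of the 7SL family, the RNA of the signal recognition particle, were called higher over all reads (median log2FC 5.02). Among them, Gm22701 (1, 0 and 0 reads in DC) and Gm24812 (1, 1 and 4) passed the read minimum only through EV. They are high there and had to differ, so they add no support to this count. Rn7s1 had 409, 398 and 358 RPM in DC and 17300, 8444 and 13549 in EV (32.4-fold, SE 0.46, FDR 4.4e-25), and took about the same part of the class in both (30.3% to 31.0% in DC and 32.6% to 36.1% in EV). Gm26461, with 96.5% identity to 7SL, rose more. It had 27.4, 27.5 and 18.0 RPM in DC and 6178, 2882 and 3735 in EV (170-fold over all reads, SE 0.54, and 7.0-fold within class, FDR 9.4e-10). Gm24105, with 91.7% identity to 7SL, rose least, with 228, 248 and 216 RPM in DC and 1647, 1140 and 1145 in EV (5.60-fold over all reads, 4.34-fold lower within class). Both within-class calls were lost without replicate 2.

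The 7SK family, a nuclear RNA that holds back transcription elongation, stood lowest in the class. Of 12 genes, 9 were higher over all reads (median log2FC 2.69), 6 were lower within the class (median −1.80) and 0 were higher there (edgeR, 0 at an unadjusted p under 0.05 and 0 by DESeq2). Of the 6 lower genes, Gm26323 had 11, 3 and 4 reads in DC and 4, 1 and 2 in EV. It passed the read minimum only through DC and adds no support to this count. Rn7sk had 27.4, 27.9 and 17.0 RPM in DC and 176, 90.8 and 212 in EV (6.41-fold higher over all reads, SE 0.51, FDR 1.2e-06, and 3.79-fold lower within class, FDR 0.00054). Its within-class call was lost without replicate 1 (log2FC −1.73) and without replicate 2 (−1.04). The direction for Rn7sk thus depends on whether misc RNA or all reads are the reference.

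Y RNAs, which bind the Ro60 protein and are cut into fragments in stressed cells, rose with the class. All 6 genes similar to Y RNA were called higher over all reads (median log2FC 5.39), and 0 were called within class by edgeR (3 higher at an unadjusted p under 0.05, and 3 higher by DESeq2). Of the 6, Gm23921 (0, 0 and 1 reads in DC), Gm26168 (1, 2 and 0) and Gm22199 (0, 0 and 2) passed the read minimum only through EV. They are high there and had to differ, so they add no support to these counts or to the median. Rny1 and Rny3 are shown because they had different ratios.
Rny1: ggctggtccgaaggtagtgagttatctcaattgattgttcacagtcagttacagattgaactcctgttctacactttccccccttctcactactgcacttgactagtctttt
Rny3: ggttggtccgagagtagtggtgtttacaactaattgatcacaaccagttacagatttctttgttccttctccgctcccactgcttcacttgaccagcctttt
Rny1 lies at chr6:47788069-47788180 (minus strand) and Rny3 at chr6:47781624-47781725 (plus strand), in GRCm38. Rny1 had 30.6, 28.3 and 24.7 RPM in DC and 1180, 1090 and 1471 in EV (44.5-fold over all reads, SE 0.52). Rny3 had 45.4, 29.5 and 22.1 RPM in DC and 350, 774 and 377 in EV (15.2-fold, SE 0.51). The difference between the 2 ratios was not tested. In the study, Northern blots showed much more full-length Y1 RNA than the sequencing coverage did, and a similar gap was reported for tRNA. Counts per gene do not tell fragments from full-length RNA, so the ratios are not levels of the full sequences shown. Vaultrc5, a component of vault particles, had 23.6, 26.8 and 16.7 RPM in DC and 438, 539 and 452 in EV (21.6-fold, SE 0.52, FDR 3.9e-16). For each of these 3 RNAs, all EV libraries lay above all DC libraries.

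**Figure D5:**
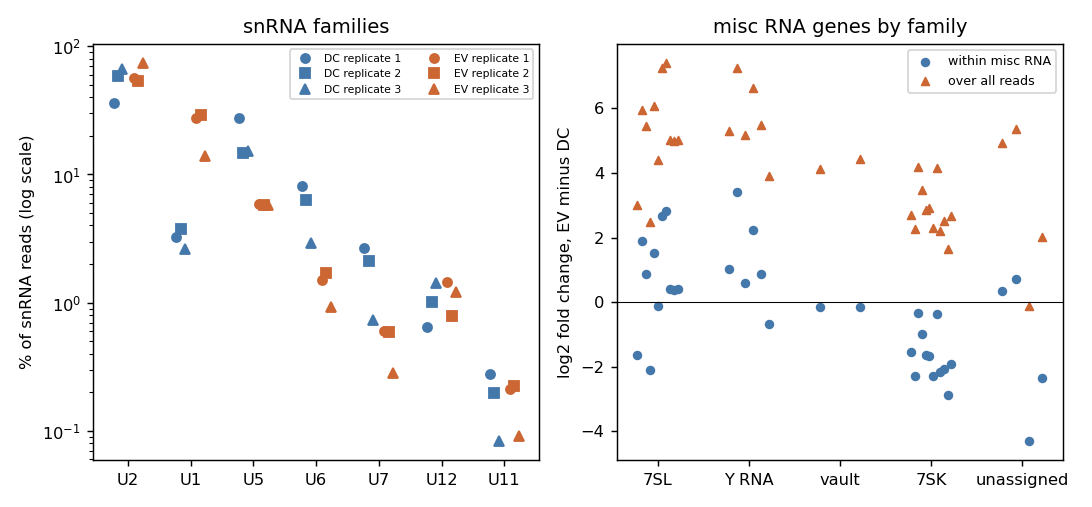
Left, share of snRNA reads (percent, log scale) of 7 snRNA families in each library; right, log2FC (EV minus DC) of the 35 misc RNA genes by family, within misc RNA (circles) and over all reads (triangles). U1 is higher in each EV library (13.9% to 29.2%) than in each DC library (2.62% to 3.76%), U5, U6 and U7 are lower, and all 12 7SK genes lie below 0 within the class and above 0 over all reads.

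tRNA reads were dominated by few isoacceptors in EV and cells alike. GluCTC genes took 63.8%, 59.4% and 62.2% of tRNA reads in control-DC and 60.1%, 57.6% and 55.0% in control-EV. GlyGCC genes took 15.8%, 15.8% and 16.3% in DC and 25.4%, 25.2% and 28.6% in EV. Some gene copies of an isoacceptor had nearly the same counts, and whether reads that match several copies were counted more than once was not tested. Of 313 tRNA genes, 8 were higher (2.56%) and 34 lower (10.9%) in EV. The lower genes had a median of 8.5 reads in EV and 873 in DC. Those with few or no EV reads passed the read minimum only through DC, where they are high, and had to differ. Summed to 48 isoacceptors, 0 were higher by edgeR (1 at an unadjusted p under 0.05, which was TrpCCA, named after its value was seen) and 2 were lower (4.17%).

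For GlyGCC, known as a frequent source of 5′ tRNA fragments in body fluids, 3 of 14 copies were called higher, each about 2-fold. chr2.tRNA1747-GlyGCC had 688621, 595697 and 407675 reads in DC and 197178, 82859 and 152741 in EV (2.04-fold within tRNA, SE 0.27, FDR 0.032, and 2.05-fold over all reads). The summed isoacceptor had a 2.27-fold higher estimate but was not called (SE 0.91, FDR 0.54), and the calls of the copies were lost without replicate 1 (log2FC 0.88) and without replicate 3 (0.90). The copies of GluCTC, such as chr1.tRNA709-GluCTC (log2FC 0.21, FDR 0.59), gave 0 calls among 12 (edgeR, 2 lower at an unadjusted p under 0.05 and 1 lower by DESeq2).

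The lower isoacceptors were IleTAT and LeuCAA. IleTAT took 0.00517%, 0.00295% and 0.00787% of tRNA reads in DC and 0.000989%, 0.000406% and 0.000748% in EV (4.98-fold lower, SE 0.60, FDR 0.0097), and LeuCAA took 0.0323%, 0.0205% and 0.0289% in DC and 0.00344%, 0.00467% and 0.00424% in EV (4.82-fold lower, SE 0.69, FDR 0.034). Without replicate 2, 0 isoacceptors were lower. Without the replicate block 6 were lower. Of 9 TyrGTA copies, 7 were lower (median log2FC −2.91 against −0.24 for all tRNA genes). The summed TyrGTA was not called (4.19-fold lower, SE 0.84, FDR 0.12), nor was ArgTCT (FDR 0.089). The lower copies chr13.tRNA101-TyrGTA (157 reads in DC and 1 in EV) and chr13.tRNA972-TyrGTA (515 and 1) passed the read minimum only through DC and had to differ. The count of copies therefore gives no support of its own for a lower TyrGTA. TyrGTA, LeuCAA, IleTAT and ArgTCT are the isoacceptors whose genes carry an intron, and the 4 together took 0.153%, 0.108% and 0.142% of tRNA reads in DC and 0.0179%, 0.0202% and 0.0341% in EV, a 5.59-fold lower share. This group was chosen after its values were seen, and no test is given. Among single genes, chr10.tRNA390-AsnGTT had 828, 575 and 481 reads in DC and 3, 2 and 3 in EV (28.2-fold lower, SE 0.53, FDR 0.00093), and chr13.tRNA65-LeuCAA had 3336, 1699 and 1782 in DC and 40, 14 and 23 in EV (11.1-fold lower, SE 0.42, FDR 0.00093). chr13.tRNA66-AlaAGC had 157, 66 and 134 reads in DC and none in EV, at least 18.3-fold lower within tRNA with 3 reads over the 3 EV libraries as the limit.

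The RNA components of ribonucleoprotein enzymes were not alike. Rpph1, the RNA of RNase P, had 338, 123 and 94 reads in DC and 1064, 255 and 772 in EV (31.2-fold higher over all reads, SE 0.54, FDR 6.3e-18). Rmrp, the RNA of the related RNase MRP in the nucleolus, had 13264, 6371 and 5916 reads in DC and 3000, 758 and 2147 in EV (1.78-fold, SE 0.44, FDR 0.14), and its shares overlapped between the groups.

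The enrichment was then set beside that of the LPS and VitD3 pairs, which are other libraries of the same days. In replicate 2 of the VitD3 pair, DC was sequenced in run 2 and EV in run 1, so that compartment and run cannot be told apart there. All other pairs of EV and DC libraries shared a run. Of the 31 higher miRNA entries of the control pair, 28 were tested in each of the other pairs. Of these, 16 were called higher in the LPS pair and 23 in the VitD3 pair, where 5.5% and 8.36% of all miRNA entries tested were called higher. Of the 13 lower entries, 10 were called lower in the LPS pair and 10 in the VitD3 pair, where 3.14% and 3.77% of all entries were called lower. Entries that passed the read minimum only through EV in the control pair, such as miR-682, were not set apart in these counts. miR-677-5p, miR-5121, miR-3535 and miR-16-1-3p were lower in all 3 pairs, and miR-682, miR-126a-3p, miR-143-3p and miR-10b-5p were higher in all 3. miR-99b-5p was called higher in the control pair and in neither other pair (log2FC 1.65, against −0.23 with LPS and 0.25 with VitD3). In a test of the difference between pairs, 0 of 482 miRNA entries differed between control and LPS at the threshold used here (edgeR, 35 at an unadjusted p under 0.05), and miR-99b-5p was not among the calls.

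For snoRNAs, 51 of the 74 higher genes were called higher in the LPS pair and 35 in the VitD3 pair, where 19.6% and 14.7% of all snoRNAs tested were called higher. Of the 76 lower genes, 41 were called lower with LPS and 46 with VitD3, against 12.7% and 16% of all snoRNAs. For snRNAs, 20 and 24 of the 40 higher genes were called higher, against 6.29% and 9.3% of all snRNAs, and 62 and 55 of the 65 lower genes were called lower, against 24.3% and 27.1%. Of the 34 lower tRNA genes, 23 were called lower with LPS and 19 with VitD3, against 10.8% and 6.96% of all tRNA genes. In the control pair, the lower snRNAs had a median of 5 reads in EV and 544 in DC, and the lower tRNA genes 8.5 and 873. Those that passed the read minimum only through DC had to differ and can come out lower in another pair for the same reason. The repeat counts of lower snRNAs and tRNA genes therefore give no support of their own. Of the 8 higher tRNA genes, 3 were called higher with LPS, against 4.75% of all tRNA genes, and 0 with VitD3, where 0 of 316 tRNA genes were higher. Of the 2 higher misc RNAs, 2 were called higher with LPS and 1 with VitD3, against 18.9% and 9.68% of all misc RNAs. All 8 misc RNAs that were lower in the control pair were called lower with LPS and 1 of them with VitD3, against 37.8% and 3.23% of all misc RNAs. The tests of the difference gave 0 calls between control and LPS or VitD3 for snoRNA (25 and 22 of 335 at an unadjusted p under 0.05), snRNA (5 and 11 of 377), misc RNA (2 and 0 of 46) and tRNA (20 and 13 of 337). DESeq2 was not run for these differences. For miRNA, 3 of 482 entries (0.622%, 38 at an unadjusted p under 0.05 in either direction) had a lower enrichment in the control than in the VitD3 pair, namely both entries of miR-1a-3p and miR-203-3p.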

How the data were processed

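RNA was isolated by the authors with a small RNA kit, depleted of rRNA and made into small RNA libraries. Per the labels and the methods of the study, paired-end reads were trimmed (cutadapt 1.8), mapped with gsnap to mm10 and counted with strand by HTSeq 0.6.1p1 against miRBase, Ensembl and repeat annotations. The deposited table holds raw read counts of 6017 RNA genes, and no row is without a name. Some near-identical tRNA and 7SL copies carry nearly the same counts, so that totals may count some reads more than once, which was not tested. Comparisons were done with edgeR 4.0.16 in R 4.3.3 (quasi-likelihood, TMM within each class, replicate block, at least 10 reads over 6 libraries, Benjamini-Hochberg within class, FDR below 0.05 and over 2-fold). A second fit used all counted reads as library size. Shares were compared with exact permutation tests (scipy 1.17.1). DESeq2 1.42.0, other scalings, read minimums, no block, all 18 libraries and leaving out each replicate were tried as alternatives. Copies were assigned to families by BLAST 2.17.0 against GENCODE release 21. The script was tested on simulated data.

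Replicate numbers mark experiments on different days in the study. As a check of the pairing, deviations from the group means over 777 RNAs correlated with r = 0.30, 0.090 and 0.47 for same-numbered EV and DC libraries and with −0.38 to 0.16 for others. Of 1907 miRNA names, 1623 matched a RefSeq mature sequence. Named RNAs are, per class and direction, those called within class with the same sign in all 3 pairs and the lowest p (up to 12 miRNAs, 6 snoRNAs and 4 of each other class), the most abundant RNAs, members of the lists, RNAs named by the study, and up to 5 RNAs per class without an EV read. Other names, such as summed families, are given where a count refers to them. Members and lists were chosen with earlier results of these data known. Columns of the other treatments enter the comparison with the LPS and VitD3 pairs, the definition of minor arms and the fit of all 18 libraries.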

Additional observations from a re-analysis of the deposited data

Results flagged for a closer look

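The enrichment in EV differed between the control and the VitD3 pair for miR-1a-3p and miR-203-3p (edgeR quasi-likelihood test of the difference, adjusted over 482 miRNA entries). For miR-1a-3p, the log2FC of the control pair was lower than that of the VitD3 pair by a difference of −3.78 (SE 0.90, FDR 0.0098). Reads of miR-1a-3p were 1, 258 and 10043 in control-DC and 9, 5 and 22555 in control-EV, against 0, 2 and 14952 in VitD3-DC and 1, 4 and 8686 in VitD3-EV, so that nearly all reads came from replicate 3 of each group. For miR-203-3p, a miRNA of epithelia, the difference was −4.65 (SE 0.89, FDR 0.00047). Its reads were 4, 29 and 150 in control-DC and 11, 4 and 20 in control-EV, against 14, 10 and 25 in VitD3-DC and 75, 9 and 8 in VitD3-EV. Without replicate 3 and without the replicate block, 0 differences were called, and without replicate 2 there was 1. In replicate 2 of the VitD3 pair, DC was sequenced in run 2 and EV in run 1, and the part of the run in these differences was not tested.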

How the results depend on the processing

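Of 2734 values of single RNAs under an alternative, 2528 counted as the same, 114 were no longer called and 81 became called. A change of sign was counted only with a call in at least 1 of the 2 fits, which gave 11. The 2528 kept their side of the threshold but may hold changes of sign without a call in either fit. The cause of these changes was not tested. The 11 counted signs turned for miR-133a-3p without replicate 3 (−0.17, against up to 3.51 when another replicate was left out), for Gm26224 (0.36), Snord49a (0.71) and Snord65 (0.98) with class-total scaling, and with TMM over all classes for Snord68 (−0.90), Gm24105 (2.21), Gm24447 (2.02), Gm26315 (2.24), Rny3 (3.65), Rn7sk (2.40) and Vaultrc5 (4.16).

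Without the replicate block, 7 miRNA entries were higher, 5 misc RNAs were higher and 6 isoacceptors lower, and 0 miRNA enrichments differed between control and VitD3. The likelihood ratio test gave 25 lower miRNA entries, 5 higher misc RNAs, and 18 higher and 64 lower tRNA genes. DESeq2 and its size factors in edgeR each gave 7 higher misc RNAs and 18 higher tRNA genes. Class-total scaling gave 173 higher and 9 lower snoRNAs, 2 higher and 53 lower tRNA genes and 10 lower isoacceptors. TMM over all classes gave 14 higher and 173 lower snoRNAs, 25 higher snRNAs, 31 higher and 0 lower misc RNAs, and 2 higher and 55 lower tRNA genes. With TMM of the snRNA family sums, 0 were lower. A fit of all 18 libraries gave 27 lower miRNA entries, 111 lower snRNAs, 4 higher misc RNAs and 56 lower tRNA genes. filterByExpr left 19 higher miRNA entries and 5 higher tRNA genes. A minimum of 1 read gave 24 higher and 39 lower snRNAs, and 2 snoRNAs and 1 misc RNA that differed between control and LPS. At least 10 reads in each compartment gave 23 lower snRNAs, 1 higher tRNA gene and 198 lower RNAs over all reads. Taking the gene copy with most reads in place of the sum, an alternative chosen after seeing the data, gave 8 higher and 9 lower isoacceptors. Without rRNA reads the EV to DC ratio of the class share was 1.21 for miRNA and 1.02 for scaRNA, and without miR-21a the ratio of the minor arm share was 1.08.

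Leaving out each replicate in turn gave 9 to 26 higher miRNA entries, 27 to 72 higher snoRNAs, 14 to 38 higher and 17 to 50 lower snRNAs, 0 to 4 higher and 0 to 9 lower misc RNAs, 2 to 25 higher tRNA genes, 88 to 116 higher RNAs over all reads, 0 to 3 higher and 0 to 10 lower isoacceptors and 0 to 4 lower snRNA families. Differences between control and LPS numbered 0 to 3 for miRNA and 0 to 1 for snoRNA, and those between control and VitD3 0 to 3 for both classes. Class share ratios ranged from 0.73 to 1.33 for miRNA and 0.69 to 1.07 for scaRNA, and the minor arm ratio from 0.82 to 1.05. EV libraries held fewer reads than DC libraries, and RNAs without an EV read are known only up to the limit that 3 reads give.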
